A study of Mus musculus with 18 samples.

Results

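The genes described here encode the nuclear subunits of the last stages of oxidative phosphorylation: complex III (ubiquinol-cytochrome c reductase), cytochrome c, complex IV (cytochrome c oxidase) and ATP synthase. They were taken from the deposited count table by symbol (names that start with Uqcr, Cox4i, Cox5, Cox6, Cox7, Cox8 or Atp5, and Cyc1 and Cycs, without pseudogene names), with at least 10 reads in 3 or more libraries. This gave 42 of the 55536 genes in the table. They comprise 9 genes of complex III, 1 of cytochrome c, 15 of complex IV and 17 of ATP synthase, and all 42 passed the low-count filter of the test. A further 5 rows matched the symbols and were left out for too few reads. They are Cox7b2, Cox8b, Cox8c, Cox6c2 (annotated as a pseudogene) and a second Atp5o entry, which had 0 reads.

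The samples were islets of 17-week-old male mice of the strain NOD.CB17-Prkdcscid/NCrCrl. Every group, controls included, thus carries the scid mutation of Prkdc, which is known to impair the making of mature T and B lymphocytes. By genotype the mice were ZNT8 +/+ (WT), ZNT8 +/- (Het) or ZNT8 -/- (KO). ZnT8 is the product of Slc30a8 and moves zinc into insulin granules. After a night of stabilization, islets of each genotype spent 24 h in RPMI1640 alone or with IL-1β at 150 pg/ml, TNF-α at 100 pg/ml and IFN-γ at 10 pg/ml, a mixture that stands for islet inflammation. The 6 groups hold 3 libraries each, 18 in all. Which exons the null allele lacks, and in which cells, is not stated in the labels. The series title links the loss of 1 ZnT8 copy to mitochondrial respiration and to protection of beta cells, so the comparisons ask how these respiratory genes differ with cytokines and with genotype.

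Complex III passes electrons from ubiquinol to cytochrome c, complex IV passes them from cytochrome c to oxygen, and both pump protons across the inner mitochondrial membrane. ATP synthase lets the protons back through a rotating ring of c subunits in its membrane part, which drives the catalytic head to make ATP. In beta cells the ATP made from glucose closes potassium channels and so triggers insulin release. The catalytic cores of complexes III and IV include subunits that the mitochondrial genome encodes, while the nuclear genes supply the remaining subunits.

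The libraries held 22990164 to 29946680 reads assigned to genes, of which the 42 genes took 0.438% to 0.498%. Levels are library-size normalised counts (CPM) after TMM scaling. Each change is a log2 ratio ± SE, fitted over 17590 genes with the quasi-likelihood model of edgeR. A gene is said to have risen or fallen where its Benjamini-Hochberg adjusted p was under 0.05. The 3 libraries are given in the order of their replicate numbers. Among the 37 genes of the set over 10 CPM, the median SD between replicates was 0.063 on the log2 scale (range 0.032 to 0.115), so changes of a few percent are near the spread. The labels do not say whether libraries came from separate mice or whether treated and untreated islets shared a mouse, so p-values reflect only how these samples vary, which may be technical. In RNA from whole islets, fewer cells of a type and less RNA per cell cannot be told apart. Slc30a8 was lower in the KO libraries than in WT by 1.23 ± 0.18 untreated (edgeR adjusted p = 0.00269) and did not pass between Het and WT (-0.06 ± 0.18, adjusted p = 0.962). The summed level of 8 beta cell markers was 165190 to 190758 CPM in untreated WT libraries and 142595 to 161404 CPM with cytokines, and none of the 8 was at 0 reads. The lymphocyte list stood at 18.8 CPM in 1 untreated KO library (replicate 3) and at 2.18 CPM or less in the rest, and that library also held the highest macrophage sum (317 CPM). Without it 19 genes of the set rose and 5 fell in KO with cytokines, and 1 differed between untreated KO and WT islets (2.23% of all genes did), beside 22, 4 and 1 with it. The shares of all genes that rose and fell with cytokines in that fit are not given.

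To show what the windows before the start sites of these genes hold, the 250 bases upstream are printed for 5 genes on which the results below turn: 3 that rose in all genotypes (Cox5a, Uqcrh and Cycs) and the 2 subunit c genes that moved apart (Atp5g1 and Atp5g3). They are from RefSeq, build GRCm38.p6, 5′ to 3′ on the strand of the gene. The windows are chr9:57520982-57521231 (plus strand) for Cox5a, chr4:116075071-116075320 (minus strand) for Uqcrh and chr6:50566570-50566819 (minus strand) for Cycs. Those of Atp5g1 and Atp5g3 are chr11:96075632-96075881 and chr2:73911327-73911576, both on the minus strand. Capitals mark matches to the motifs of NRF1, GABPA (NRF2 of the respiratory literature), YY1 or ERRα, factors known for the control of respiratory genes.
Cox5a: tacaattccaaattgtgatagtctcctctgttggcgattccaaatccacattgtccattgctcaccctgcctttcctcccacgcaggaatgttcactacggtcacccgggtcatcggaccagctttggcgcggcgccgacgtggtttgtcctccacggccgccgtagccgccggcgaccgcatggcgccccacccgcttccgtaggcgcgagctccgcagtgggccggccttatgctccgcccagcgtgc
Uqcrh: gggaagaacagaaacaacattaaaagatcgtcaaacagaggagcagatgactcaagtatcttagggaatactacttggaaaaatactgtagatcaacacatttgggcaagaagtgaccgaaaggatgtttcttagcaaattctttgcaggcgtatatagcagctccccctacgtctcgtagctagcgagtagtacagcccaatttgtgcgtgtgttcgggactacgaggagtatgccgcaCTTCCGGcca
Cycs: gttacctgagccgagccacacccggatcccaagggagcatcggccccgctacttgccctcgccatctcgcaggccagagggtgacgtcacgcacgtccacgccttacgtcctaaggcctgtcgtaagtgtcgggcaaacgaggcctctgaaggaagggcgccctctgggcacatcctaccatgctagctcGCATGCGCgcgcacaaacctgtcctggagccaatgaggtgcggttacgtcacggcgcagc
Atp5g1: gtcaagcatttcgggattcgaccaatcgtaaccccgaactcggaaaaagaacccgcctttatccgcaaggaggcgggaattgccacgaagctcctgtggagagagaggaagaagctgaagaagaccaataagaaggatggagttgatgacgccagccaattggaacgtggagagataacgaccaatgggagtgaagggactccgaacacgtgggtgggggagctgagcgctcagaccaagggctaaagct
Atp5g3: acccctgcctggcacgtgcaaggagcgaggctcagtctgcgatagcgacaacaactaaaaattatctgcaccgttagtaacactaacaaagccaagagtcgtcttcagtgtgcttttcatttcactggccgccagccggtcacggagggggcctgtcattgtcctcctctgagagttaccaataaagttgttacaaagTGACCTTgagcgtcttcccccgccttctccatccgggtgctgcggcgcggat

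Uqcrh holds a GABPA match close to its start, Cycs an NRF1 match and Atp5g3 an ERRα match, while these letters are not in the Cox5a and Atp5g1 windows. Cox5a holds a match to the Sp1 letters, left in lower case. The search used 33 RefSeq windows (250 bases before to 50 after the start) for 30 of the 42 genes. Windows of Atp5f1, Atp5mpl, Atp5s, Cox4i1, Cox4i2, Cox6a2, Cox6c, Cyc1, Uqcrb, Uqcrc2 and Uqcrq were not matched. For the set, chromosome 18, which holds Atp5a1, was left out of the search, while the windows of all tested genes kept it. Searched on both strands, the NRF1 letters GCGCATGC were in 7 of the 33 windows (21.2%, in Atp5g2, Atp5k, Atp5l, Cox6a1, Cycs, Uqcr11 and Uqcrc1). Over windows of the tested genes matched by symbol the share was 4.57% of 15676. The GABPA letters CCGGAAG were in 10 windows (30.3% against 15.0%), those of Cox8a, Uqcrh, Cox6a1 and Cox6b1 among them, and the ERRα letters AAGGTCA in 4 (12.1% against 3.37%). The YY1 letters AAGATGGC were in 2 windows (6.06% against 3.81%) and the Sp1 letters GGGCGG in 10 (30.3% against 58.6%). Of motifs that respond to the cytokines used, the NF-κB motif was in 0 windows of the set (1.70% of those of tested genes) and the STAT letters TTCNNNGAA in 3 (9.09% against 6.92%). The NRF1, GABPA and ERRα letters do not overlap one another in the printed windows. A match describes the letters only, and binding was not measured.

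With cytokines the respiratory genes shifted by small amounts, more often up than down. In WT islets 13 of the 42 rose (31.0%) and 3 fell (7.14%), where 12.6% of all genes tested rose and 13.1% fell. In Het islets 7 rose (16.7%) and 3 fell, against 12.8% and 11.8% of all genes. In KO islets 22 rose (52.4%) and 4 fell (9.52%), against 15.4% and 16.1%. The median log2 change of the set was 0.10, 0.07 and 0.15 in WT, Het and KO, beside medians of -0.01, -0.03 and -0.03 over all genes. In either direction 25.8%, 24.6% and 31.5% of all genes were called, and 36.9%, 35.4% and 41.5% had an unadjusted p under 0.05. All treated libraries lay above all untreated ones for 17, 18 and 23 genes of the set (40.5%, 42.9% and 54.8%). Of all genes 23.1%, 17.7% and 20.1% did. The treated libraries lay below for 6, 5 and 5 genes of the set (23.4%, 17.4% and 22.6% of all genes). The counts of called genes in WT and KO thus stood above the share of all genes that rose, and the Het count close to it. By libraries that did not overlap, the set stood above all genes in Het as well. Estimates were above 0 in all 3 genotypes for 30 genes, below 0 in all 3 for 7 and mixed for 5, and no gene was called in opposite directions. The counts moved with single libraries. Shares of all genes in those fits are not given, so whether the WT and KO excess held in them is not shown. In WT 7 rose without untreated WT replicate 1 or 2. In Het 3 rose without untreated Het replicate 2 and 4 without any of the 3 treated Het libraries, while 1 fell without untreated or treated Het replicate 1. In Het 2 fell without untreated replicate 3 or treated replicate 2, and in WT 2 fell without untreated WT replicate 2 or 3 or treated WT replicate 1 or 2. In KO 1 fell without treated KO replicate 3, and 2 without untreated KO replicate 1 or 2 or treated KO replicate 1. The beta cell marker sum also moved with treatment, from 162135 to 199033 CPM in untreated Het and 185715 to 231179 CPM in untreated KO libraries to 152300 to 180800 and 159722 to 202013 CPM with cytokines. Markers of other cell types moved as well. The sum of 6 duct genes was 1746 to 2761 CPM in untreated and 3596 to 6612 CPM in treated WT libraries, and 1276 to 1841 and 2960 to 3868 CPM in KO ones, while the treated and untreated Het ranges overlapped. The sum of 4 alpha cell genes was lower with treatment, at 10666 to 14905 and 7014 to 9499 CPM in WT, 12334 to 18415 and 8669 to 9747 CPM in Het, and 13666 to 18729.5 and 8429 to 12634 CPM in KO libraries. The sum of 7 mesenchymal genes was 1312 to 1475 CPM in untreated and 647 to 1202 CPM in treated WT libraries. Untreated and treated ranges overlapped in Het (813 to 2556 and 404 to 1012 CPM) and in KO (1251 to 3265 and 433 to 1599 CPM). The part of these cell types in the result was not tested.

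**Figure D1:**
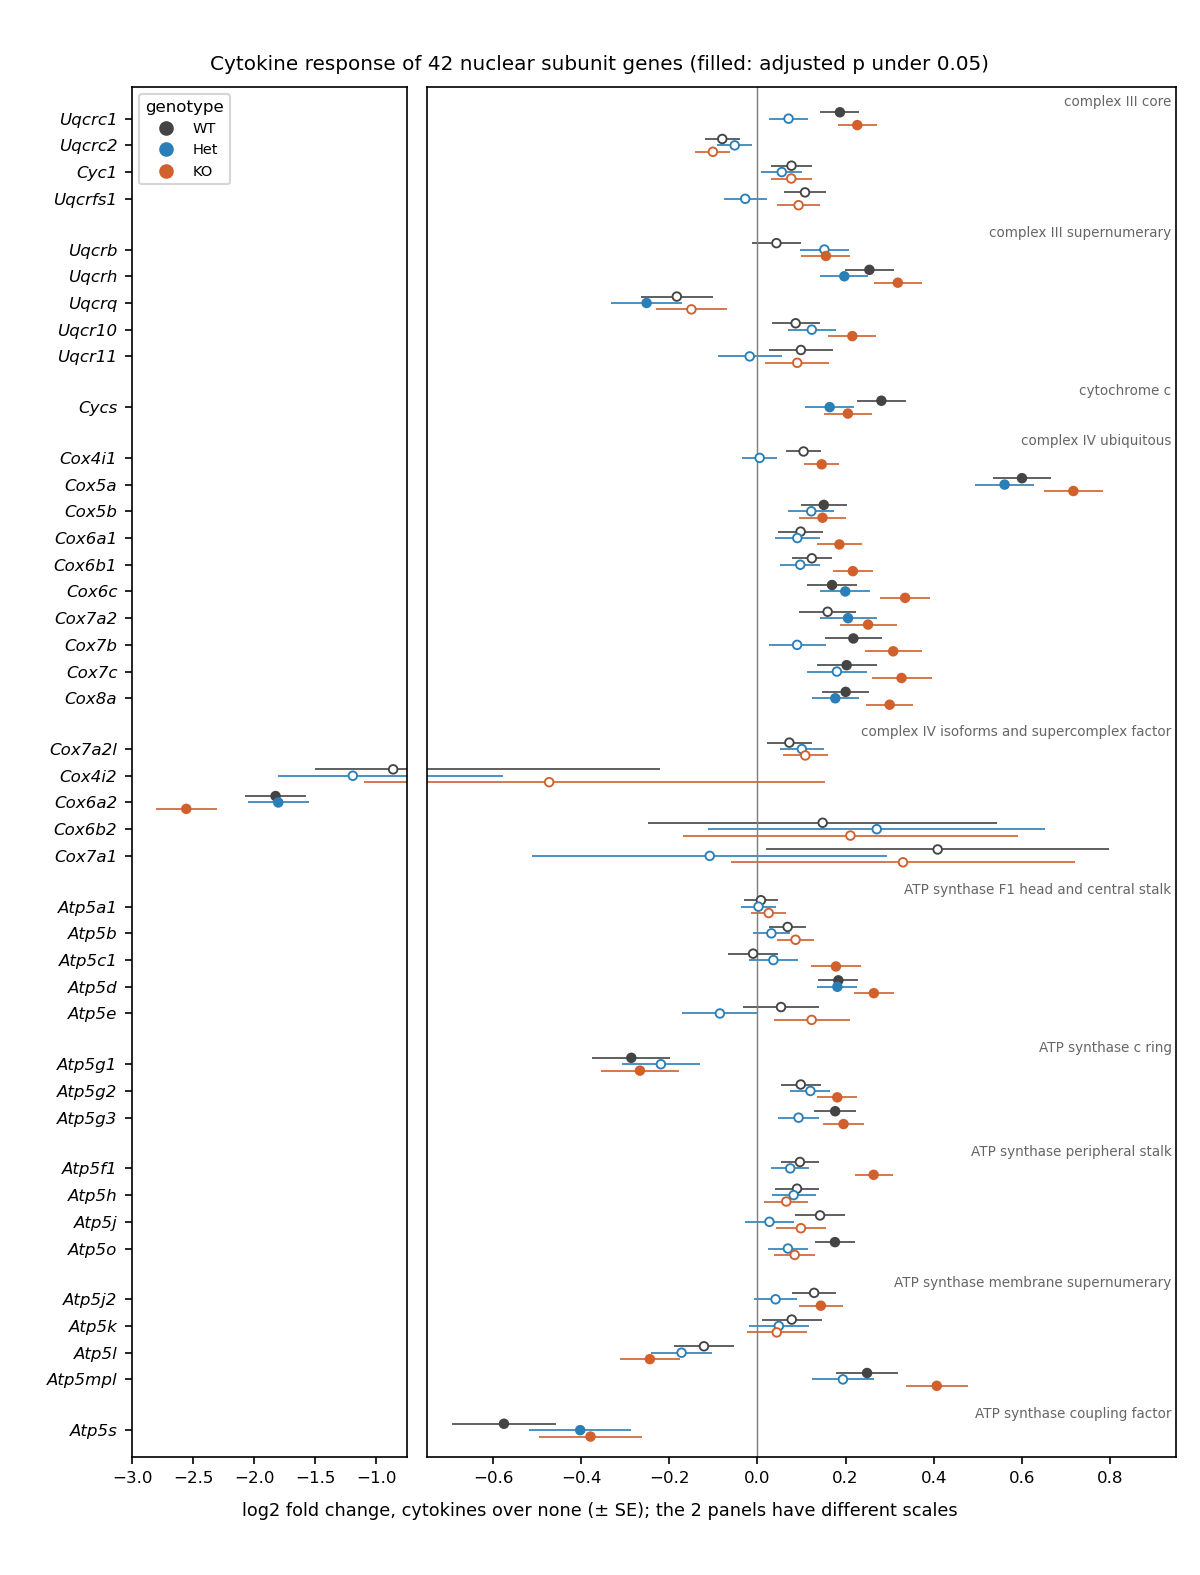
Log2 fold change (± SE) of each of the 42 genes with cytokines over none, in WT (grey), Het (blue) and KO (orange) islets, ordered by complex and role; filled points had an adjusted p under 0.05, and the 2 panels have different scales. Cox5a stands to the right of the other genes in each genotype, at 0.60, 0.56 and 0.72, and Cox6a2 far to the left, at -1.82, -1.80 and -2.56.

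The same 8 genes were called in all 3 genotypes. Of these, 6 rose (Cox5a, Uqcrh, Cox6c, Cox8a, Cycs and Atp5d) and 2 fell (Cox6a2 and Atp5s). Another 8 were called in exactly 2 genotypes, 12 in exactly 1 and 14 in none. Of the 12, 10 were called in KO alone. Over all genes KO also had the most calls (31.5%, against 25.8% in WT and 24.6% in Het). How many of all genes were called in 1, 2 or 3 genotypes was not counted. The response of no gene of the set was called different between genotypes. By edgeR's interaction test 0 of 42 passed for Het against WT, KO against WT or KO against Het, where 0%, 0.0114% and 0% of all genes did. At an unadjusted p under 0.05 there were 0, 2 and 6 (0%, 4.76% and 14.3%, against 4.91%, 6.82% and 5.81% of all genes), and DESeq2 and limma each called 0. Interaction estimates above 0 numbered 12, 29 and 35 of 42. Their medians were -0.03, 0.04 and 0.09, beside -0.002, -0.007 and 0.0007 over all genes.

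In complex IV 10 genes encode the ubiquitous subunits, those used in most tissues. Of the 10, 6 rose in WT, 4 in Het and 10 in KO islets (60%, 40% and 100%), beside 12.6%, 12.8% and 15.4% of all genes. By edgeR 0 fell, and all 10 genes had estimates above 0 in each genotype. Their median changes of 0.16, 0.15 and 0.28 were the highest among the role groups of more than 1 gene. Without untreated WT replicate 2 the WT count was 1, without untreated Het replicate 2 the Het count was 1, and without untreated KO replicate 2 the KO count was 7. With total counts in place of TMM scaling 3 rose in WT, and with only the compared groups in the fit 2 rose in Het. The shares of all genes that rose in these other fits are not given. The summed level of the 15 complex IV genes was 1039, 1034 and 1112 CPM in untreated WT and 1173, 1213 and 1206 CPM with cytokines. In Het libraries it was 1085, 1045 and 1109 CPM untreated and 1173, 1209.7 and 1198 CPM treated. KO libraries held 1105, 1016 and 1062 CPM untreated and 1278, 1311 and 1196 CPM treated. In each genotype every treated library was above every untreated one, whereas the sums of complex III and of ATP synthase overlapped in each.

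Cox5a (ENSMUSG00000000088; GRCm38 chromosome 9, 57521274 to 57532426, plus strand) encodes subunit 5A, a matrix-side subunit of complex IV. It stood at 73.1, 62.8 and 68.0 CPM in untreated WT libraries and at 105, 102 and 102 CPM with cytokines. Het islets held 65.4, 64.9 and 74.4 CPM untreated and 97.4, 107 and 97.9 CPM treated, and KO libraries 62.9, 57.5 and 64.0 CPM untreated and 104, 104 and 95.8 CPM treated. Treated and untreated libraries were far apart in each genotype, and the treated ranges of the 3 genotypes overlapped. The rise was 1.52-fold in WT, 1.48-fold in Het and 1.64-fold in KO (log2 0.60 ± 0.07, 0.56 ± 0.07 and 0.72 ± 0.07; edgeR adjusted p = 8.48e-06, 1.38e-05 and 8.22e-07). It held in all alternatives tried, leaving out each library included. Of its exon bases 12.8% are shared with Gm26631 on the other strand, and strand use in the counting is not stated, so there the reads of both genes cannot be told apart. The same holds for small parts of Uqcrc2 (19.7% with Pdzd9), Cox6c (7.01% with Vps13b), Atp5d (3.53% with Cbarp) and Atp5l (2.06% with Gm30934).

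Cox6c and Cox8a encode small single-span subunits of complex IV. Cox6c was at 69.0, 68.2 and 71.3 CPM in untreated WT and 75.4, 75.7 and 83.3 CPM in treated WT libraries. In Het it was at 69.6, 64.9 and 72.7 CPM against 80.8, 75.6 and 81.5 CPM, and in KO at 70.5, 62.1 and 68.0 CPM against 84.4, 86.7 and 82.0 CPM. The groups did not overlap in any genotype, and the changes were 0.17 ± 0.06, 0.20 ± 0.06 and 0.34 ± 0.06 (edgeR adjusted p = 0.0394, 0.0178 and 0.000314). The WT call for Cox6c was lost under 8 of the 27 alternatives (adjusted p up to 0.177, without treated WT replicate 3), and the Het call without untreated Het replicate 2 or treated replicates 1 or 3 (up to 0.0898) and with only the compared groups in the fit (0.0727). Cox8a stood at 107, 108 and 115 CPM in untreated and 121, 132 and 125 CPM in treated WT libraries. Het libraries held 115, 110.2 and 117 CPM and then 124, 127 and 135 CPM of Cox8a, and KO libraries 122, 108 and 116 CPM and then 143, 148 and 136 CPM. Each treated Cox8a library was above each untreated one of its genotype, with changes of 0.20 ± 0.05, 0.18 ± 0.05 and 0.30 ± 0.05 (edgeR adjusted p = 0.0116, 0.0240 and 0.000465). The Cox8a call in WT was lost without untreated WT replicate 2 (adjusted p = 0.0503) and in Het without untreated replicate 2 (0.0959) or treated replicate 3 (0.114) and with only the compared groups (0.0723).

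The other 7 ubiquitous subunits of complex IV rose in KO by 0.15 (Cox4i1, subunit 4, and Cox5b, the zinc-binding subunit 5B) to 0.33 (Cox7c). Cox7b and Cox7c also rose in WT (0.22 ± 0.06 and 0.20 ± 0.07), Cox5b in WT (0.15 ± 0.05) and Cox7a2 in Het (0.21 ± 0.06). Cox6a1 and Cox6b1 were called in KO alone (0.19 ± 0.05 and 0.22 ± 0.05), with 0.10 and 0.12 in WT, and 0.09 and 0.10 in Het. Cox4i1 stood at 0.10 ± 0.04 in WT and 0.00 ± 0.04 in Het. The 2 Cox5b calls were close to the threshold (edgeR adjusted p = 0.0471 and 0.0440) and were lost under 16 and 15 of the 27 alternatives. In WT the Cox7c call was lost under 9 (adjusted p up to 0.174, without untreated WT replicate 2) and the Cox7b call without untreated WT replicate 1 (0.102) or 2 (0.0799) or treated WT replicate 3 (0.0579). The Het call of Cox7a2 was lost without untreated Het replicate 2 (0.122) or any of the treated Het libraries (0.0619 to 0.0788). In KO the calls of Cox4i1 and Cox6a1 were lost without untreated KO replicate 2 (0.0561 and 0.0601), that of Cox4i1 also without treated KO replicate 1 (0.0581) and that of Cox6a1 without treated KO replicate 2 (0.0591).

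**Figure D2:**
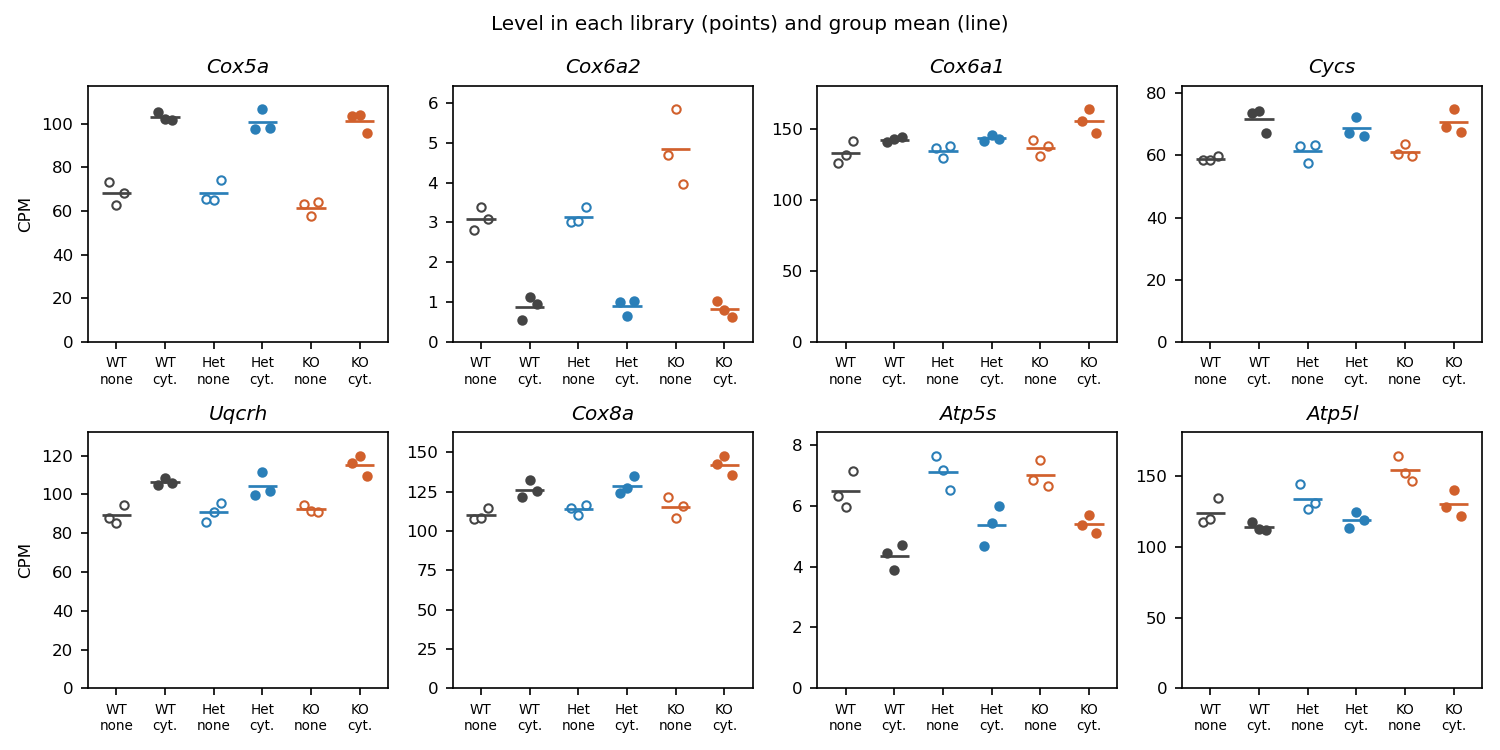
CPM in each library (points; open untreated, filled with cytokines) and group mean (line) for 8 genes in WT, Het and KO islets, with axes from 0. Cox5a goes from about 68 to 103 CPM in WT, Cox6a2 falls while its partner Cox6a1 stays between 126 and 164 CPM, and untreated KO libraries are highest for Atp5l.

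Among the tissue and inducible forms of complex IV subunits, Cox6a2 alone was called, and it fell. Cox6a2 (ENSMUSG00000030785; chromosome 7, 128205435 to 128206387, minus strand) encodes the heart and muscle form of subunit 6A, and Cox6a1 the form of other tissues. Cox6a2 was low: 2.81, 3.38 and 3.08 CPM in untreated WT libraries and 0.537, 1.13 and 0.94 CPM with cytokines. In Het it was at 3.00, 3.04 and 3.39 CPM untreated and 1.01, 0.656 and 1.04 CPM treated. KO libraries held 4.70, 5.84 and 3.97 CPM untreated and 1.02, 0.807 and 0.614 CPM treated. All treated libraries were below all untreated ones, and the untreated KO libraries were the 3 highest. Cox6a2 fell 3.54-fold in WT, 3.49-fold in Het and 5.88-fold in KO (log2 -1.82 ± 0.25, -1.80 ± 0.25 and -2.56 ± 0.25; edgeR adjusted p = 7.04e-05, 6.13e-05 and 1.44e-06), in each alternative tried. It was the only gene of the set called at 2-fold or more. The difference in response was not called (KO against WT -0.73 ± 0.36, interval of 2 SE from -1.44 to -0.02, adjusted p = 0.756).

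Cox6a1 was at 126, 132 and 142 CPM in untreated and 140.4, 143 and 144 CPM in treated WT libraries, which overlap. In Het it was at 136, 129 and 138 CPM and 141, 146 and 143 CPM, and in KO at 142, 131 and 138 CPM and 156, 164 and 147 CPM. Per kilobase of exon, Cox6a1 stood 41.7-fold above Cox6a2 in untreated WT islets, 41.4-fold in Het and 27.4-fold in KO, and 159-, 154- and 185-fold with cytokines. The share of Cox6a2 in the summed CPM of both genes went from 2.27% ± 0.203 to 0.604% ± 0.205 in WT (SD, n = 3), from 2.28% ± 0.122 to 0.626% ± 0.153 in Het and from 3.43% ± 0.768 to 0.519% ± 0.121 in KO. Markers of striated muscle, the tissue the isoform is named for, summed to 1.66 to 9.24 CPM over 9 genes with Myh4 at 0, and were 6.59 to 9.24 CPM in untreated and 1.82 to 6.39 CPM in treated WT libraries. In KO libraries, where Cox6a2 was highest untreated, the muscle sum was 2.69 to 3.87 CPM untreated and 1.66 to 1.88 CPM treated, and its part in the fall was not tested. Of the exon bases of Cox6a2, 10.3% are shared with Itgad on the other strand.

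The remaining isoforms were near the floor of detection and were not called. Cox4i2, the form of subunit 4 known for its induction by low oxygen, stood at 0.242, 0.755 and 0.367 CPM in untreated and 0.165, 0.417 and 0.157 CPM in treated WT libraries. In Het it was at 0.717, 0.524 and 0.381 CPM and 0.271, 0.328 and 0.107 CPM, and in KO at 0.417, 0.0812 and 0.656 CPM and 0.353, 0.135 and 0.346 CPM. Its changes of -0.86 ± 0.64, -1.19 ± 0.61 and -0.47 ± 0.63 carry SEs too large for a call, and only the Het groups did not overlap. Pericyte markers, cells in which Cox4i2 is known to be expressed, summed to 79.5 to 121 CPM in the untreated and 56.2 to 86.9 CPM in the treated libraries. Their part in the Cox4i2 values was not tested. The partner Cox4i1 was 143- to 331-fold higher per kilobase. It held 149, 146 and 152 CPM in untreated and 159.6, 160.3 and 161 CPM in treated WT libraries, 148, 151 and 158 CPM and 150.1, 158 and 151 CPM in those of Het mice, and 149, 143 and 149 CPM and 167, 165 and 155 CPM in those of KO mice.

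Cox6b2, the testis form of subunit 6B, ranged from 0.375 to 1.11 CPM over all 18 libraries, and Cox7a1, the muscle form of subunit 7A, from 0.179 to 0.628 CPM. Their partners Cox6b1 (121 to 149.7 CPM) and Cox7a2 (70.5 to 99.1 CPM) were 284- to 336-fold and 100.0- to 155-fold higher per kilobase. Changes of Cox6b2 lay between 0.15 ± 0.40 and 0.27 ± 0.38 and those of Cox7a1 between -0.11 ± 0.40 and 0.41 ± 0.39, and treated and untreated libraries overlapped throughout. The testis germ cell markers Prm1, Tnp1 and Tnp2 had 0 reads. Cox7a2l, a relative of subunit 7A that joins complexes III and IV into supercomplexes, ranged from 80.8 to 94.6 CPM and changed by 0.07 ± 0.05, 0.10 ± 0.05 and 0.11 ± 0.05, with overlapping groups.

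Complex III moved less. Of its 9 genes 2 rose in WT (22.2%), 1 in Het (11.1%) and 4 in KO (44.4%), beside 12.6%, 12.8% and 15.4% of all genes. In Het 1 fell (11.1%, against 11.8% of all genes), and the medians were 0.09, 0.06 and 0.09. Uqcrh, the acidic hinge protein that bridges cytochrome c1 and cytochrome c, was at 87.9, 85.0 and 94.5 CPM in untreated and 105, 108 and 106 CPM in treated WT libraries. In Het it held 86.0, 91.1 and 95.6 CPM and 99.4, 111 and 102 CPM, and in KO 94.8, 91.2 and 91.1 CPM and 116, 119.9 and 109 CPM. Its treated libraries were above the untreated ones in each genotype, with changes of 0.25 ± 0.05, 0.20 ± 0.05 and 0.32 ± 0.05 (edgeR adjusted p = 0.00282, 0.0151 and 0.000338). The Het call of Uqcrh was lost without untreated replicate 1 (adjusted p = 0.0636) or treated replicate 2 (0.0843) and with only the compared groups in the fit (0.0975).

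Uqcrc1, a core protein, held 120.1, 119 and 127 CPM untreated and 138, 145 and 135 CPM treated in WT libraries, and rose there by 0.19 ± 0.04 (edgeR adjusted p = 0.00545). In KO it held 127, 118 and 119 CPM and 148, 142 and 137 CPM, and rose by 0.23 ± 0.04 (adjusted p = 0.00102). In Het the libraries at 124, 125 and 128 CPM and at 132, 133 and 129.8 CPM did not overlap, yet the change of 0.07 ± 0.04 was not called (adjusted p = 0.279). The other core protein gene, Uqcrc2, had negative estimates throughout (-0.08 ± 0.04, -0.05 ± 0.04 and -0.10 ± 0.04) and was not called. Cyc1 (cytochrome c1) and Uqcrfs1 (the Rieske iron-sulfur protein), which carry electrons, were not called, at 0.06 to 0.08 and -0.03 to 0.11.

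Among the supernumerary subunits, Uqcr10 rose in KO (0.22 ± 0.05, edgeR adjusted p = 0.00672), as did Uqcrb (0.16 ± 0.06, adjusted p = 0.0450). The Uqcrb call was lost under 11 of the 27 alternatives. Uqcrq was the only complex III gene that fell, in Het islets (-0.25 ± 0.08, adjusted p = 0.0332), where the groups overlapped and the call was lost in limma (0.145), with only the compared groups in the fit (0.124) and without untreated Het replicate 1 (0.118) or 3 (0.112) or treated replicate 1 (0.112) or 2 (0.0972). Uqcr11 was not called.

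Cytochrome c, the mobile carrier between the 2 complexes and a trigger of apoptosis once it leaves the mitochondrion, is encoded by Cycs (chromosome 6, 50562563 to 50566538, minus strand). It stood at 58.4, 58.6 and 59.9 CPM in untreated and 73.8, 74.2 and 67.1 CPM in treated WT libraries. Het libraries held 63.2, 57.5 and 63.3 CPM and 67.3, 72.4 and 66.4 CPM, and KO libraries 60.3, 63.7 and 59.8 CPM and 69.3, 74.9 and 67.7 CPM. No treated library overlapped the untreated ones of its genotype. Cycs rose by 0.28 ± 0.06, 0.16 ± 0.06 and 0.21 ± 0.06 (edgeR adjusted p = 0.00146, 0.0409 and 0.0102). The Het call was lost under 12 of the 27 alternatives (adjusted p up to 0.181, without untreated Het replicate 2) and the KO call without treated KO replicate 2 (0.0562).

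Of the 17 ATP synthase genes 4 rose in WT islets (23.5%), 1 in Het (5.88%) and 7 in KO (41.2%), beside 12.6%, 12.8% and 15.4% of all genes. Falls numbered 2, 1 and 3 (11.8%, 5.88% and 17.6%), near or below the 13.1%, 11.8% and 16.1% of all genes. The catalytic head was not called. Atp5a1 and Atp5b, the alpha and beta subunits that form the head, ranged over 507 to 566 CPM and 588 to 659.5 CPM, with estimates of 0.00 to 0.03 and 0.03 to 0.09 that were not called. Of the central stalk, Atp5d (delta) rose in all genotypes. It held 139, 139 and 143 CPM in untreated and 155, 167 and 157 CPM in treated WT libraries, 138, 128 and 140.2 CPM and 152, 159 and 151 CPM in those of Het mice, and 139.6, 136 and 131 CPM and 161, 169 and 158 CPM in those of KO mice. These groups did not overlap either, and the changes were 0.18 ± 0.05, 0.18 ± 0.05 and 0.26 ± 0.05 (edgeR adjusted p = 0.00707, 0.00802 and 0.000334). The Het call of Atp5d was lost with only the compared groups in the fit (0.0705). Atp5c1, the gamma shaft, rose in KO alone, from 155, 143 and 151 CPM to 164, 180.4 and 163 CPM (0.18 ± 0.06, adjusted p = 0.0244). That call was lost without untreated KO replicate 2 (0.106) or treated KO replicate 2 (0.121) and with only the compared groups in the fit (0.0518). In WT its libraries held 158, 144 and 159 CPM and 148, 149.6 and 159.7 CPM, and in Het 157, 144 and 161 CPM and 158, 159 and 157 CPM, both overlapping. The interaction of Atp5c1 between KO and WT was 0.19 ± 0.08, with an adjusted p of 0.675. Atp5e (epsilon) was not called.

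The 3 genes of subunit c moved apart. Their mature proteins are known to be the same, and the genes differ in the peptide that directs import into mitochondria. Atp5g1 fell in WT and KO, while Atp5g3 rose in both and Atp5g2 in KO. Atp5g1 stood at 101, 106 and 113 CPM in untreated and 83.9, 88.9 and 90.0 CPM in treated WT libraries. In Het it held 127, 99.9 and 105 CPM and then 95.2, 90.4 and 99.1 CPM, and in KO 136, 122 and 115 CPM and then 106, 110.4 and 93.4 CPM. Treated libraries were below the untreated ones in each genotype, also in Het, where the change was not called. The changes of Atp5g1 were -0.29 ± 0.09, -0.22 ± 0.09 and -0.27 ± 0.09 (edgeR adjusted p = 0.0257, 0.0840 and 0.0303). The WT call of Atp5g1 was lost without untreated WT replicate 2 (adjusted p = 0.0591) or 3 (0.106) or treated replicate 1 (0.0946) or 2 (0.0677). Its KO call was lost without untreated KO replicate 1 (0.173) or 2 (0.0586) or treated KO replicate 1 (0.0564) or 3 (0.131), without treated WT replicate 2 (0.0503) and with only the compared groups in the fit (0.0816).

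Atp5g3 held 141, 145 and 153 CPM in untreated and 159, 169 and 168 CPM in treated WT libraries, 153, 147 and 153 CPM and 161, 163 and 161 CPM in those of Het mice, and 150.2, 147 and 146 CPM and 174, 176 and 156 CPM in those of KO mice. Here the treated libraries were above the untreated ones in each genotype. The changes were 0.18 ± 0.05, 0.09 ± 0.05 and 0.20 ± 0.05 (edgeR adjusted p = 0.0123, 0.177 and 0.00527), and the WT call was lost without untreated WT replicate 1 (0.0635). Atp5g2 held 62.3, 60.9 and 63.4 CPM and 66.9, 65.7 and 67.1 CPM in WT libraries, 66.3, 62.7 and 68.5 CPM and 72.3, 70.3 and 72.0 CPM in those of Het mice, and 67.9, 64.5 and 64.4 CPM and 75.2, 78.4 and 69.7 CPM in those of KO mice. It followed the direction of Atp5g3, and its rise was called in KO (0.18 ± 0.05, adjusted p = 0.00656).

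As a share of the summed CPM of the 3 genes, Atp5g1 went from 33.9% ± 0.535 to 27.4% ± 0.30 in WT (SD, n = 3), from 33.6% ± 2.56 to 28.9% ± 0.975 in Het and from 36.8% ± 1.58 to 29.8% ± 0.534 in KO. The Atp5g3 share went from 46.4% ± 0.140 to 51.7% ± 0.458, from 46.2% ± 1.75 to 49.2% ± 0.992 and from 43.8% ± 1.25 to 48.7% ± 0.460. A share within the library does not depend on how libraries are scaled. The shares are not corrected for exon length, so they do not rank the genes. Per kilobase of exon, untreated WT islets held 21.8 CPM of Atp5g1, 37.1 CPM of Atp5g2 and 67.1 CPM of Atp5g3. The lowest untreated Atp5g1 share, 32.1% in Het replicate 3, was above the highest treated share, 30.3% in KO replicate 2. The highest Atp5g1 share was 38.4%, in untreated KO replicate 1.

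**Figure D3:**
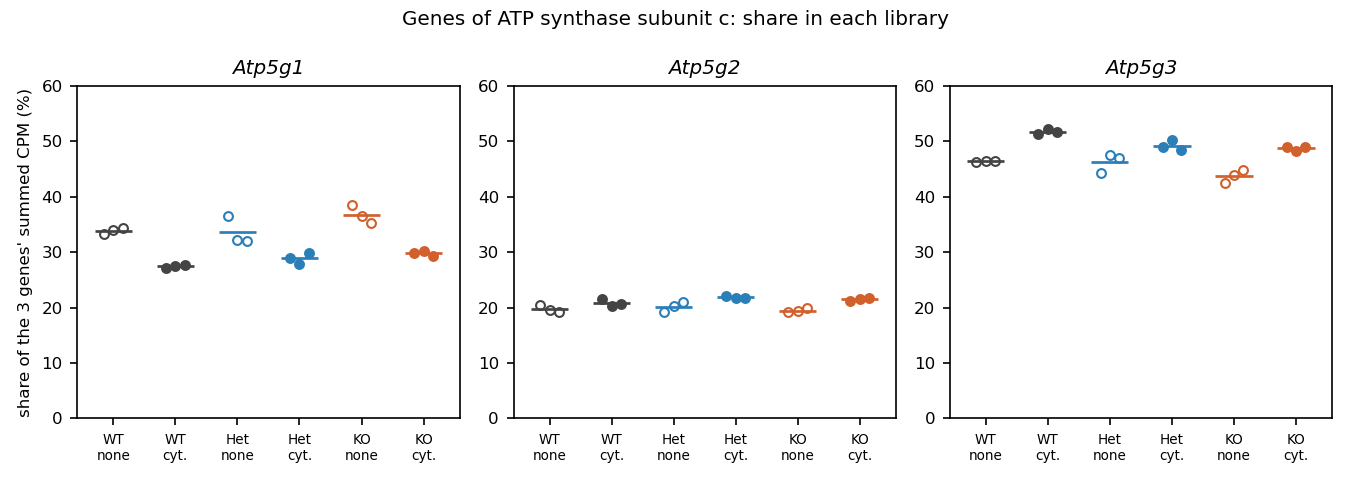
Share (%) of Atp5g1, Atp5g2 and Atp5g3 in the summed CPM of the 3 subunit c genes, per library (points; open untreated, filled with cytokines) with the group mean (line). Atp5g1 shares are lower and Atp5g3 shares higher with cytokines in WT, Het and KO islets, as from 33.9% to 27.4% for Atp5g1 in WT.

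In the peripheral stalk, which holds the head still, 1 of 4 genes rose in WT (Atp5o, the oligomycin sensitivity protein, 0.18 ± 0.05) and 1 in KO (Atp5f1, subunit b). Atp5f1 held 155, 146 and 147 CPM in untreated and 155, 163 and 161 CPM in treated WT libraries, 159, 148 and 158 CPM and 160.0, 163 and 166 CPM in those of Het mice, and 147, 148 and 140.3 CPM and 173, 181 and 168 CPM in those of KO mice. Its treated KO libraries were the 3 highest of the 18. Atp5f1 rose in KO by 0.26 ± 0.04 (edgeR adjusted p = 0.000222), with 0.10 ± 0.04 in WT and 0.07 ± 0.04 in Het. It had the smallest interaction p of the set, unadjusted 0.0147 for KO against WT and 0.00702 for KO against Het, with adjusted p = 0.562 and 0.801. Atp5h and Atp5j, subunits d and F6, were not called. Exon bases of Atp5f1, Atp5o and Atp5j are shared in part with genes on the other strand (8.21% with Wdr77, 18.1% with Gm15976 and 12.7% with Gabpa).

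Of the small membrane subunits, Atp5mpl, a proteolipid other than subunit c, rose in WT (0.25 ± 0.07) and KO (0.41 ± 0.07). Atp5j2, subunit f, rose in KO (0.14 ± 0.05). The WT call of Atp5mpl was lost without untreated WT replicate 1 (adjusted p = 0.0593) or 2 (0.0924) or treated WT replicate 3 (0.0569). The KO call of Atp5j2 was lost under 5 of the 27 alternatives (adjusted p up to 0.13, without untreated KO replicate 2). Atp5k, subunit e, was not called. Atp5l (ENSMUSG00000038717; chromosome 9, 44912557 to 44920742, minus strand), subunit g, which helps ATP synthase form dimers, fell in KO (-0.24 ± 0.07, edgeR adjusted p = 0.0127). That call was lost without untreated KO replicate 1 (0.0906) or treated replicate 3 (0.0628) and with only the compared groups in the fit (0.0561). Its levels are given with the genotypes below.

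Atp5s, known as coupling factor B, was counted with the ATP synthase genes by its symbol alone. It was at 6.34, 5.96 and 7.15 CPM in untreated and 4.46, 3.88 and 4.70 CPM in treated WT libraries. Het libraries held 7.64, 7.17 and 6.51 CPM and 4.69, 5.43 and 6.00 CPM, and KO libraries 6.86, 7.51 and 6.65 CPM and 5.36, 5.70 and 5.11 CPM. Its level per kilobase of exon, 2.13 to 3.49 CPM over the groups, was the lowest of the ATP synthase genes in untreated WT islets, and its treated libraries were below the untreated ones in each genotype. It fell by 0.58 ± 0.12 in WT, 0.40 ± 0.12 in Het and 0.38 ± 0.12 in KO on the log2 scale (edgeR adjusted p = 0.00204, 0.0189 and 0.0217). The Het call was lost without untreated Het replicate 1 (0.0665) or 2 (0.0515) or treated replicate 1 (0.0955), with no low-count filter (0.0602) and with only the compared groups in the fit (0.109). The KO call of Atp5s was lost without untreated KO replicate 2 (0.0852) or treated KO replicate 1 (0.0605) or 3 (0.0733), with no low-count filter (0.0705) and with only the compared groups (0.0651).

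Neighbouring gene groups of the pathway were counted in the same way. Of 39 nuclear complex I genes, which feed electrons into the chain, 2 were higher in WT, 3 in Het and 4 in KO islets by the same test. These shares of 5.13%, 7.69% and 10.3% lay below the 12.6%, 12.8% and 15.4% of all genes. The medians of the complex I genes were 0.03, 0.02 and 0.06. The risers in all genotypes were Ndufa3 (0.21 ± 0.07, 0.24 ± 0.07 and 0.26 ± 0.07) and Ndufa4 (0.30 ± 0.06, 0.23 ± 0.06 and 0.31 ± 0.06). Ndufa4 was named for complex I and is now counted as a complex IV subunit. Of the 4 complex II genes Sdhd, a membrane anchor, rose in WT and KO (0.17 ± 0.05 and 0.22 ± 0.05).

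Of the mitochondrially encoded subunits of complexes III, IV and ATP synthase 0 of 6 were called by edgeR in any genotype (0 at an unadjusted p under 0.05), with medians of 0.05, -0.14 and 0.32. Mitochondrial genes took 1.09% to 1.58% of the reads of a library. Of 22 assembly factors of complex IV 1, 2 and 3 rose (4.55%, 9.09% and 13.6%), below the share of all genes that rose, and 1 fell in WT, with Pet100 called in WT and KO (0.27 ± 0.08 and 0.24 ± 0.08) and Cox14 and Higd2a in Het (0.36 ± 0.09 and 0.15 ± 0.05) and KO (0.36 ± 0.09 and 0.23 ± 0.05). Of 6 assembly factors of complex III edgeR called 0, with 0, 2 and 3 at an unadjusted p under 0.05. Atpaf2, which assembles the head of ATP synthase, fell in WT and KO (-0.23 ± 0.07 and -0.20 ± 0.07).

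**Figure D4:**
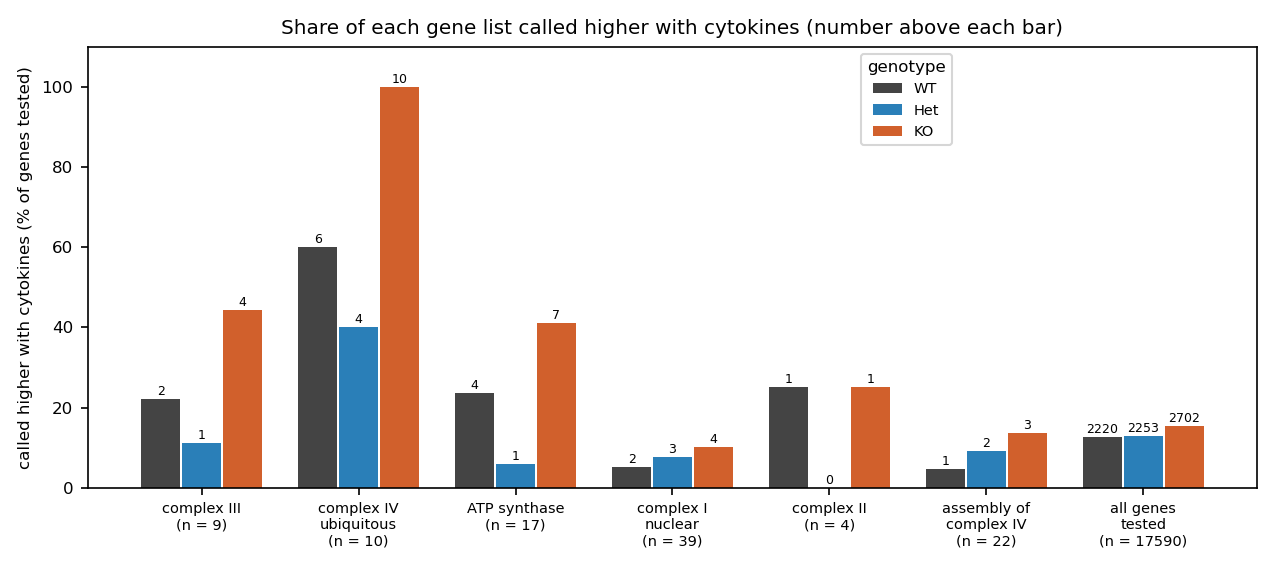
Percent of the tested genes of each list that rose with cytokines (edgeR adjusted p under 0.05), in WT, Het and KO islets, with the number of genes above each bar; the rightmost bars are all 17590 genes. The ubiquitous complex IV genes have the tallest bars (6, 4 and 10 of 10), while complex I reaches 4 of 39.

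The genotypes differed little in these genes. Between untreated Het and WT islets edgeR called 0 of 42 (0.00569% of all genes were called), as did DESeq2 and limma, and 2 had an unadjusted p under 0.05 (4.76%, against 7.13% of all genes). With cytokines the same 3 tests again called 0 (0% of all genes by edgeR), and 2 had an unadjusted p under 0.05 (7.11% of all genes). The medians of the set were 0.03 and 0.01. 

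The smallest p between untreated Het and WT islets was that of Atp5e, the epsilon subunit, at 85.2, 88.6 and 102 CPM in WT and 110.4, 95.9 and 115 CPM in Het libraries (0.22 ± 0.09, edgeR adjusted p = 0.60). Its untreated KO libraries held 115, 98.1 and 99.1 CPM, and with cytokines it was at 93.0, 96.9 and 96.5 CPM in WT, at 96.7, 98.7 and 108 CPM in the Het and at 117, 120.1 and 103 CPM in the KO libraries. The WT and Het libraries overlap. Uqcr11 was next, at 54.5, 53.5 and 61.9 CPM in WT, 67.5, 58.7 and 63.2 CPM in the Het and 70.1, 62.5 and 64.9 CPM in the KO libraries without treatment (0.16 ± 0.07 for Het, adjusted p = 0.699). Treated libraries held 59.3, 60.1 and 62.5 CPM of Uqcr11 in WT, then 58.0, 64.3 and 64.7 CPM in the Het and 68.4, 76.1 and 65.8 CPM in the KO group. With cytokines the smallest p between Het and WT were those of Atp5s (0.31 ± 0.12, adjusted p = 0.659) and Atp5g2 (0.10 ± 0.05, adjusted p = 0.684), whose libraries are given above. For the interaction of Het and WT they were those of Uqcrfs1 (-0.14 ± 0.07, adjusted p = 0.867) and Uqcrc1 (-0.12 ± 0.06, adjusted p = 0.867). Uqcrfs1 held 63.7, 61.8 and 64.8 CPM untreated and 64.5, 71.7 and 69.0 CPM treated in WT libraries. In Het it held 68.6, 65.4 and 66.2 CPM and then 62.2, 68.0 and 66.2 CPM, and in KO 63.7, 61.6 and 60.7 CPM and then 67.9, 67.7 and 62.7 CPM.

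Between untreated KO and WT islets Atp5l alone was called, higher in KO (2.38% of the set, where 0.563% of all genes were higher and 2.48% lower). It stood at 117, 119.8 and 135 CPM in WT libraries without treatment, 144, 127 and 131 CPM in the Het ones and 164, 152 and 146 CPM in the KO ones. With cytokines it was at 117, 112 and 112 CPM in WT, at 113, 124 and 119 CPM in the Het and at 128, 140.1 and 122 CPM in the KO libraries. Every KO library was above every WT library of the same treatment. The difference was 1.24-fold untreated (0.32 ± 0.07, edgeR adjusted p = 0.0233), and under cytokines it was 0.19 ± 0.07 (adjusted p = 0.108). The call was lost without untreated WT replicate 1 (0.126) or 2 (0.0889) or untreated KO replicate 1 (0.0896) or 2 (0.0633). DESeq2 called 1 gene of the set (2.38%, against 5.85% of all genes) and limma 3 (7.14%, against 9.98%), both below the share of all genes. Cox6a2 stood at 0.65 ± 0.22 with an adjusted p of 0.135, its KO libraries all above those of WT. Between untreated KO and Het islets, which share the KO libraries with the comparison above, edgeR called 0 (0.00569% of all genes), DESeq2 0 (1.95%) and limma 3 (7.14%, against 13.0% of all genes). Without untreated Het replicate 1 edgeR called 2 (4.76%, against 10.7% of all genes). These shares lie below those of all genes. In the fit to all libraries 5 had an unadjusted p under 0.05 (11.9%, against 14.9% of all genes). The smallest p there were those of Atp5l (0.20 ± 0.07, adjusted p = 0.212) and Cox6a2 (0.62 ± 0.22, adjusted p = 0.230).

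With cytokines the set lay slightly higher in KO than in WT islets, without a call in edgeR. The median was 0.07, beside 0.00 over all genes, and 34 of 42 estimates were above 0. Related lists lay higher too, with medians of 0.10 for nuclear complex I (35 of 39 estimates above 0), 0.09 for complex II (4 of 4) and 0.36 for the mitochondrially encoded subunits (6 of 6). Every KO library was above every WT library for 14 genes (33.3%, against 14.5% of all genes), and below for 0. By edgeR 0 of 42 were called (1.48% of all genes were higher and 3.85% lower, 5.34% in all), while 14 had an unadjusted p under 0.05 (33.3%, against 24.3%), DESeq2 called 5 (11.9%, against 9.77% of all genes) and limma voom with quality weights 13 (31.0%, against 23.1%). The DESeq2 share is near that of all genes. The edgeR count was 2 with RLE or total-count scaling (4.76%, against 5.53% and 5.46% of all genes), and up to 3 when a library was left out (7.14%, against 7.63%, without treated KO replicate 3). The genes of smallest p were Atp5g2 (0.16 ± 0.05, edgeR adjusted p = 0.0536) and Uqcr10 (0.18 ± 0.05, adjusted p = 0.0613). Uqcr10, a small subunit of complex III, held 51.7, 52.7 and 54.1 CPM in treated WT libraries, 53.2, 56.6 and 56.2 CPM in the Het ones and 61.4, 62.8 and 55.8 CPM in the KO ones. Untreated WT libraries held 46.7, 48.8 and 53.8 CPM, the Het ones 51.1, 49.3 and 52.1 CPM and the KO ones 52.0, 51.4 and 51.7 CPM, with no such gap. Treated KO and Het islets differed by a median of 0.07, with 0 calls in edgeR (0% of all genes), DESeq2 and limma and 9 genes at an unadjusted p under 0.05 (21.4%, against 8.45% of all genes). The smallest p were those of Cox8a and Uqcrh (both 0.14 ± 0.05, adjusted p = 0.501).

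Markers of acinar cells moved with genotype in the same libraries. The summed level of 20 acinar genes ran from 9429 to 9523 CPM in WT libraries before treatment, from 3269 to 4969 CPM in Het ones and from 1781 to 2799 CPM in KO ones. With cytokines it was 6377 to 12172, 3149 to 4905 and 862 to 2020 CPM. The beta cell marker sums given above also reach higher in KO than in WT libraries. The part of either in the genotype values was not tested.

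**Figure D5:**
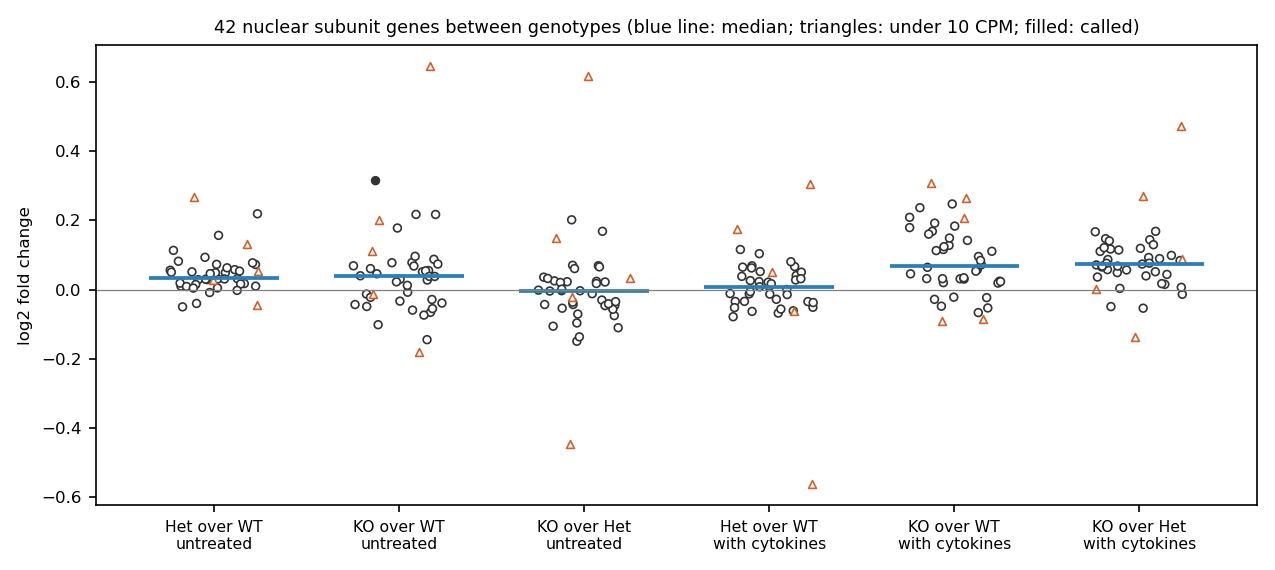
Log2 fold change of the 42 genes (points; triangles are genes under 10 CPM) between genotypes, untreated and with cytokines, with the median (blue line); the filled point, Atp5l between untreated KO and WT, is the only one called. The median lies at 0.07 for KO over WT and for KO over Het with cytokines, and within 0.04 of 0 in the other 4 comparisons.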

How the data were processed

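RNA-seq of islets was deposited by the authors as raw read counts per gene, whole numbers in 18 libraries, in a table of 55536 genes and a second table with the same counts for 25253 of them. Per the submitters' processing notes the tools, named without roles, were STAR 2.5.2a, DESeq2 1.30.0, featureCounts 1.6.2, FastQC 0.11.7 and cutadapt 1.16, and the build was GRCm38. Whether counting used strand is not stated there. Groups and replicate numbers come from the labels. CPM, log2 ratios and their p-values are from the larger table, by edgeR 4.0.16 in R 4.3.3 (filterByExpr with a count minimum of 10, which kept 17590 genes; TMM scaling; quasi-likelihood test; 1 mean per group over all 18 libraries; 12 residual degrees of freedom), with Benjamini-Hochberg adjustment over all genes tested within each of 12 comparisons. Genes were placed and exon lengths taken from GENCODE vM21. DESeq2 1.42.0, limma 3.58.1, other scalings, filters, fits and the omission of each library were alternatives. The test was checked on simulated data whose changes were larger than most of those given here, so the check does not cover small changes. No 2 libraries of a group agreed within sampling noise. The genes of the set and all lists were chosen with earlier results of these data known. Every library is given for genes called in all 3 cytokine comparisons or in a genotype comparison, the 2 of smallest p where none was called, and isoforms with their partners, in ranges for the least abundant. Other genes are given by range. Figures were drawn with matplotlib 3.10.9. One result among the complex I genes is not reported here.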

Additional observations from a re-analysis of the deposited data

How the results depend on the processing

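Of 53 calls of single genes of the set, 26 held under all 27 alternatives and 36 under all but the omission of single libraries, and 0 reversed. Counts that moved by over 1.5 times are listed here, and the cause was not tested. The cytokine counts lack the share of all genes in the same alternative, so whether an excess over all genes held is not shown. The 13 genes higher with cytokines in WT were 21 in limma voom, and 7 to 18 when single libraries were left out. The 3 lower in WT were 6 with total counts, and 2 to 3 without single libraries. The 7 higher in Het were 2 with only the compared groups in the fit and 11 in limma, and 3 to 9 without single libraries. The 3 lower in Het were 5 with total counts and 1 with only the compared groups, and 1 to 3 without single libraries. The 4 lower in KO were 1 with only the compared groups, and 1 to 5 without single libraries, while the 22 higher in KO stayed within 16 to 22. For untreated KO against WT the count of 1 was 3 in limma, and 0 to 1 without single libraries. For untreated KO against Het the count of 0 was 3 in limma, and 0 to 2 without single libraries. For KO against WT with cytokines the count of 0 was 2 with RLE factors, 2 with total counts, 1 over the genes of the authors' filtered table, 5 in DESeq2 and 13 in limma, and 0 to 3 without single libraries. The replicate number served as a block: it gave 5 genes lower with cytokines in Het in place of 3, 12 and 21 higher in WT and KO, and moved no other count by over 1.5 times. Same-numbered treated and untreated libraries correlated in their deviations at 0.063 to 0.208 (WT), -0.219 to 0.380 (Het) and 0.048 to 0.392 (KO). The highest correlation with a treated library of another number was -0.074 to 0.067 (WT), -0.133 to 0.361 (Het) and -0.03 to 0.28 (KO). These values do not settle whether the numbers pair the samples, and the main fit took the samples as unpaired. Depth limits Cox4i2, Cox6b2 and Cox7a1, all under 1.2 CPM.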
